A study of Mus musculus with 8 samples.

Results

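Thyroid hormone signaling in the neonatal mouse cochlea is described here through 8 genes. They were chosen by name as the core of the pathway, with earlier results of these data known. They are the nuclear receptors *Thra* and *Thrb*, the deiodinases *Dio2* and *Dio3*, the response genes *Hr* and *Klf9*, and *Trh* and *Trhr*, which encode thyrotropin-releasing hormone (TRH) and its receptor. All 8 were among the 36536 Ensembl genes with counts, and 7 of them had enough reads to be tested in every comparison, *Dio3* being the exception. The RNA-seq libraries came from cochlear cells of *Lfng-GFP* mice (B6;FVB-Tg(Lfng-EGFP)HM340Gsat/Mmucd), in which a BAC carrying the *Lfng* regulatory region drives EGFP in most supporting cell types but not in inner pillar cells. Freshly dissected, untreated cochleas of postnatal day 1 (P1) and postnatal day 6 (P6) mice were dissociated, and GFP- cells were collected beside the brightest of the GFP+ cells. This gave 4 groups, P1 GFP+, P1 GFP-, P6 GFP+ and P6 GFP-, with 2 replicate libraries in each, and every group carried the transgene. Cells with dim GFP went into neither fraction, so the GFP- cells are those without detectable GFP and not all remaining cells of the cochlea. The study's methods state that the P1 tissue was freed of lateral wall, stria and Reissner's membrane, which were only partly taken off at P6, so age and dissection cannot be told apart. Each library came from the pooled sorted cells of dissociated cochleas, and no source used here says whether replicates came from separate litters, so p-values measure only the spread between these samples.

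Thyroid hormone reaches the cochlea mainly as the prohormone thyroxine (T4), which *Dio2* converts to the active form triiodothyronine (T3), whereas *Dio3* inactivates both forms. T3 binds the receptors encoded by *Thra* and *Thrb*, which regulate their target genes from DNA elements built of the hexamer AGGTCA, usually together with a retinoid X receptor. The hormone is required for the cochlea to mature before the onset of hearing, and loss of *Thrb* or *Dio2* causes deafness in mice. TRH is best known from the hypothalamus, where it controls thyrotropin release and its gene is repressed by T3, but the peptide and its receptor are also used elsewhere as a local signal.

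The libraries held 17769024 to 67695039 counts on genes, which were 64.7% to 76.2% of the reads or read pairs listed. Levels are given as counts per 1000000 gene counts (CPM), and comparisons between genes also divide by exon length (CPM per kb). The sum over 7 supporting cell markers was at least 5639 CPM in every GFP+ library and at most 356.4 CPM in the GFP- libraries. Hair cell markers were also higher in GFP+ cells, and the sum over 7 of them was at 162% and 186% of the GFP- mean in the P1 GFP+ libraries and at 112% and 136% in the P6 GFP+ libraries. Of the 7, 6 were higher past the test at P1 and 5 at P6, among them the hair cell transcription factor gene *Atoh1* (log2 fold change 4.61 ± 0.26 SE at P1, p-adj = 5.61e-05 by edgeR, and 6.48 ± 0.79 at P6, p-adj = 0.00410 by edgeR). The P6 value of *Atoh1* rests on 15 and 31 counts in the GFP+ libraries and on 1 and 0 counts in the GFP- libraries. The part of hair cells in the differences between the fractions given here was not tested. In P6 GFP+ replicate 2 the sums over markers of other cell types were higher than in replicate 1, with ratios of 2.08 for otic fibrocytes and mesenchyme, 3.71 for osteoblasts, 2.02 for glia, 2.29 for macrophages, 4.19 for endothelial cells, 2.43 for melanocytes, 1.64 for cartilage and 6.27 for strial marginal cells, 1.19 for neurons and 1.21 for hair cells, while supporting cell markers stood at a ratio of 0.739. In the supporting cell sum the largest part was *Lfng*, whose regulatory region drives the reporter, at 3755 CPM in replicate 1 and 2365 CPM in replicate 2. *Prox1* went the other way, at 81.4 and 132.7 CPM, and the other members of that list were lower in replicate 2. Values from P6 GFP+ replicate 2 are therefore given separately from those of its replicate.

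Across the 4 groups the 8 genes fell into distinct patterns. *Trh* and *Trhr* were almost restricted to the GFP+ fraction and fell steeply between P1 and P6. *Hr* and *Klf9* rose between P1 and P6 in both fractions, *Hr* being higher in GFP+ cells at both ages. *Dio2* was higher in GFP- cells and rose with age, *Thrb* was higher in GFP+ cells at P1 and did not pass that test at P6, *Thra* was lower in GFP+ cells at both ages, and *Dio3* was at or near 0 throughout.

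**Figure D1:**
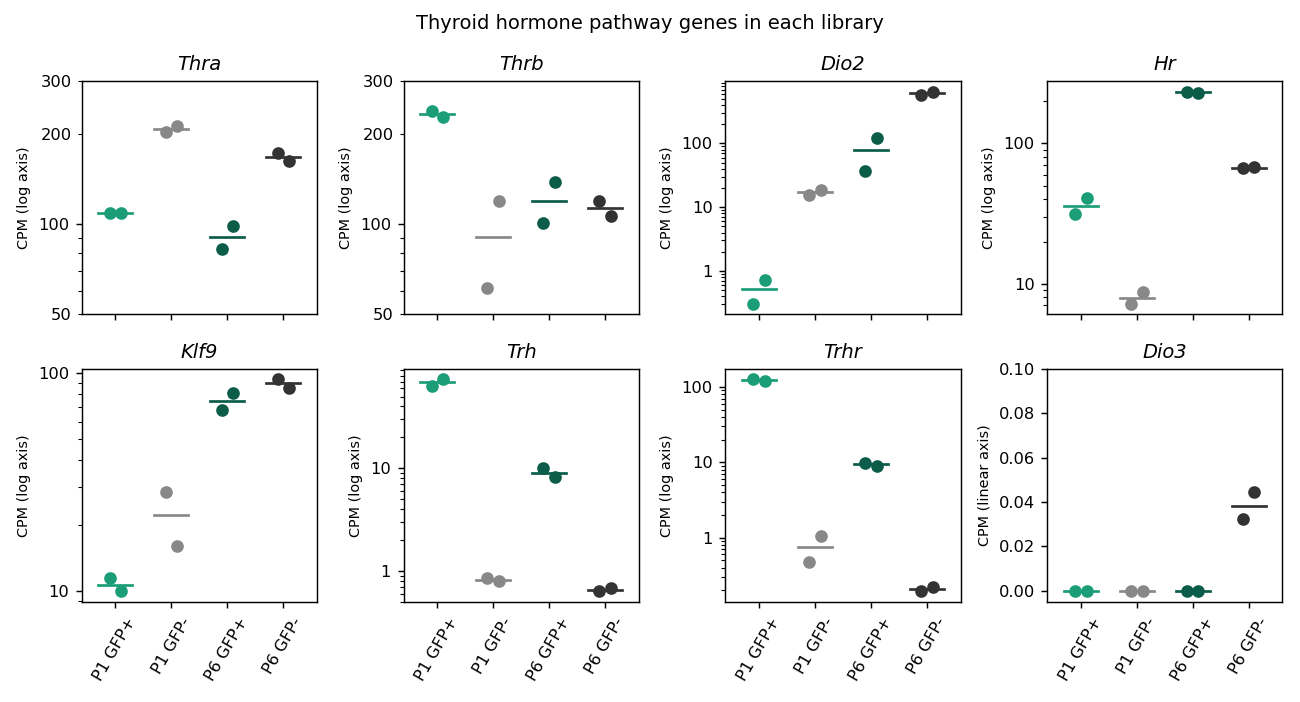
CPM of each of the 8 genes in each library, on a log axis except for *Dio3*; points are replicate libraries and lines are group means (n = 2). *Trh* and *Trhr* stood highest in P1 GFP+ cells, *Hr* in P6 GFP+ cells and *Dio2* in P6 GFP- cells, and *Dio3* was counted only in P6 GFP- cells.

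The genes with the strongest enrichment in the GFP+ fraction were the ligand and receptor of the TRH system. *Trh* (ENSMUSG00000005892, chromosome 6, 92192055 to 92194644, minus strand, NCBIM37) encodes the precursor that is cleaved into TRH. It was measured at 63.7 and 73.6 CPM in the P1 GFP+ libraries and at 0.844 and 0.792 CPM in the P1 GFP- libraries. At P6 it was at 9.96 and 8.20 CPM in GFP+ cells and at 0.632 and 0.680 CPM in GFP- cells. The GFP+ and GFP- libraries did not overlap at either age, and both P6 GFP+ libraries lay below both P1 GFP+ libraries. *Trh* was 90.2-fold higher in GFP+ cells at P1 (log2 fold change 6.50 ± 0.14 SE, p-adj = 9.99e-06 by edgeR) and 13.7-fold higher at P6 (3.78 ± 0.31, p-adj = 0.00139 by edgeR). Between P1 and P6 it fell by 2.83 ± 0.18 on the log2 scale in GFP+ cells (p-adj = 0.00263 by edgeR), a 7.10-fold change. In GFP- cells the log2 change was -0.13 ± 0.35 (p-adj = 0.835 by edgeR). For *Trh* the fraction ratio, GFP+ over GFP-, also differed between the ages past the test (-2.73 ± 0.27 on the log2 scale, p-adj = 0.00187 by edgeR).

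*Trhr* (ENSMUSG00000038760, chromosome 15, 44027681 to 44067458, plus strand) encodes the G protein-coupled receptor for TRH. Its level was 125.8 and 120.7 CPM in the P1 GFP+ libraries, against 0.475 and 1.05 CPM in the P1 GFP- libraries. At P6 the GFP+ libraries had 9.85 and 8.97 CPM, and the GFP- libraries had 0.195 and 0.222 CPM, which rest on 12 and 15 counts. The fractions were again fully separated at both ages. *Trhr* was 163-fold higher in GFP+ cells at P1 (log2 fold change 7.35 ± 0.27 SE, p-adj = 1.62e-05 by edgeR) and 44.4-fold higher at P6 (5.47 ± 0.33, p-adj = 0.00080 by edgeR). Without P1 GFP- replicate 2 the P1 value was 8.10. It fell by 3.62 ± 0.14 on the log2 scale in GFP+ cells between P1 and P6 (p-adj = 0.00171 by edgeR), a 12.3-fold change. In GFP- cells the change was -1.70 ± 0.52 (p-adj = 0.0642 by edgeR), and without P1 GFP- replicate 1 it was -2.14 with p-adj = 0.0107 by edgeR. Without P1 GFP- replicate 2 it was -1.01 with p-adj = 0.336 by edgeR. The difference of the fraction ratio between the ages was -1.91 ± 0.47 (p-adj = 0.0535 by edgeR) and passed the test without either P1 GFP- library or without either P6 GFP+ library.

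The levels of both genes in GFP- cells can be read beside those of the supporting cell markers in the same libraries. As a percent of the P1 GFP+ mean, the P1 GFP- libraries held 1.23% and 1.15% for *Trh*, 0.385% and 0.849% for *Trhr*, and 2.59% and 4.08% for the summed supporting cell markers. At P6 the values were 6.96% and 7.48% for *Trh*, 2.07% and 2.35% for *Trhr*, and 4.70% and 4.15% for the markers. Whether supporting cells in the GFP- fraction contribute these reads was not tested. In bulk samples, fewer cells of a type and less RNA per cell cannot be told apart.

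The windows of 250 bases upstream of *Trh* and *Trhr* are shown because both genes fell together in GFP+ cells. They were read from the NCBIM37 genome before the gene starts of the GENCODE annotation, 5′ to 3′ on the gene's strand, and capitals mark the hexamer AGGTCA on either strand, searched together with the cyclic AMP response element TGACGTCA.
*Trh*, chr6:92194645-92194894, minus strand: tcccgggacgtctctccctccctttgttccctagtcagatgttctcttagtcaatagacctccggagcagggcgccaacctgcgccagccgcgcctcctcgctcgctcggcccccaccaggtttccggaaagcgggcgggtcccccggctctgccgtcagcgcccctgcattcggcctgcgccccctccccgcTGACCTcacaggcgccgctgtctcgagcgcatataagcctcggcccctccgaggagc
*Trhr*, chr15:44027431-44027680, plus strand: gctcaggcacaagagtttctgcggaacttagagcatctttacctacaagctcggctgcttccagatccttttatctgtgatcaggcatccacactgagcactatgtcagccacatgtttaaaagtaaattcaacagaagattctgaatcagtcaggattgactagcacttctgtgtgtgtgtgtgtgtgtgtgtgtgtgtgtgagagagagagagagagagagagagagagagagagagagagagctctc
The *Trh* window held 1 copy of the hexamer, read as TGACCT on the gene's strand and starting at position -57 from the gene start, and the *Trhr* window held none of the motifs searched. The hexamer was present in the same window of 12.5% of 22365 protein-coding genes. A match is a run of letters and not evidence of binding.

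The response genes moved in the other direction. *Hr* (ENSMUSG00000022096, chromosome 14, 70952019 to 70973355, plus strand) encodes hairless, a nuclear corepressor of the thyroid hormone receptor that is induced by T3 in brain. It was measured at 31.3 and 40.9 CPM in P1 GFP+ cells and at 7.20 and 8.67 CPM in P1 GFP- cells. At P6 it reached 234.1 and 229.4 CPM in GFP+ cells and 66.6 and 67.4 CPM in GFP- cells. Every P6 library was above every P1 library, and at each age both GFP+ libraries were above both GFP- libraries. *Hr* rose 6.86-fold in GFP+ cells (log2 fold change 2.78 ± 0.16 SE, p-adj = 0.00241 by edgeR) and 9.61-fold in GFP- cells (3.26 ± 0.14, p-adj = 7.25e-05 by edgeR). It was 4.86-fold higher in GFP+ than in GFP- cells at P1 (2.28 ± 0.17, p-adj = 0.000143 by edgeR) and 3.44-fold higher at P6 (1.78 ± 0.16, p-adj = 0.00172 by edgeR). The difference between these ratios did not pass the test (-0.51 ± 0.22, p-adj = 0.225 by edgeR). The *Hr* levels of the P6 GFP+ replicates stood at a ratio of 0.980, replicate 2 over replicate 1. The supporting cell markers stood at 0.739 as a sum, with *Prox1* going the other way, and the marker sums of other cell types had the ratios given above. The part of any cell type in the *Hr* level was not tested.

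*Klf9* (ENSMUSG00000033863, chromosome 19, 23215716 to 23241401, plus strand) encodes a zinc finger transcription factor that T3 induces directly in several tissues and that glucocorticoids induce as well. P1 GFP+ cells had 11.4 and 9.96 CPM, and P1 GFP- cells had 28.5 and 16.2 CPM. P6 GFP+ cells had 68.2 and 81.0 CPM, and P6 GFP- cells had 93.8 and 85.9 CPM. As with *Hr*, every P6 library was above every P1 library. The rise was 7.39-fold in GFP+ cells (log2 fold change 2.89 ± 0.16 SE, p-adj = 0.00230 by edgeR) and 4.61-fold in GFP- cells (2.20 ± 0.26, p-adj = 0.00227 by edgeR). At P1 *Klf9* was lower in GFP+ than in GFP- cells (-0.95 ± 0.29, p-adj = 0.0333 by edgeR), a call that was lost without P1 GFP+ replicate 1 (p-adj = 0.0901 by edgeR) or replicate 2 (p-adj = 0.156 by edgeR). At P6 the log2 difference was -0.28 ± 0.16 (p-adj = 0.237 by edgeR), and the difference between the ages was 0.66 ± 0.35 (p-adj = 0.326 by edgeR). Thus *Hr* and *Klf9* rose together with age but had fraction differences of opposite sign at P1.

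**Figure D2:**
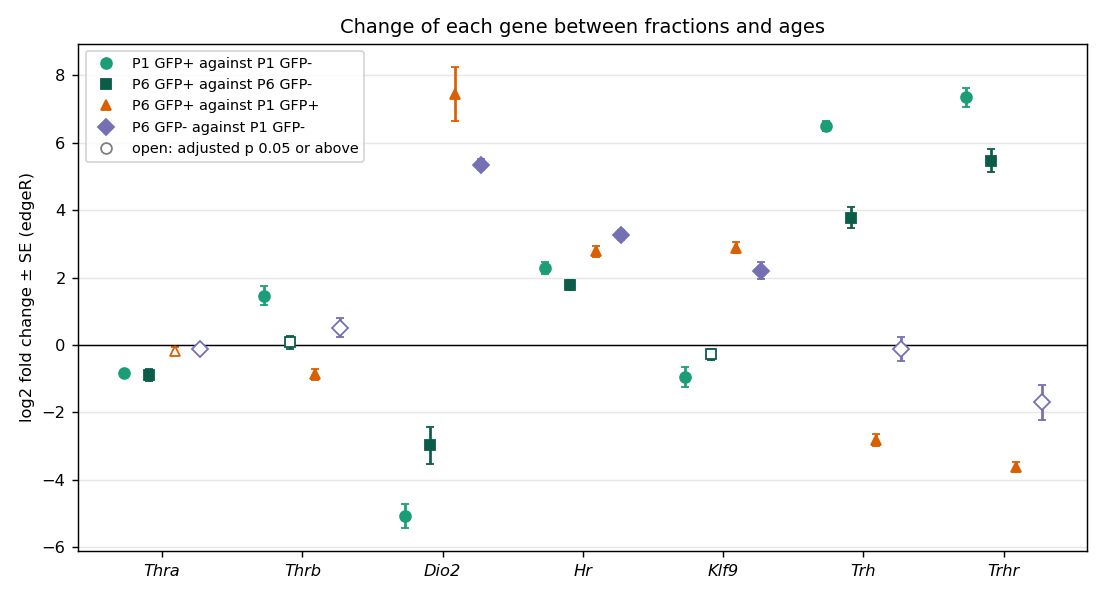
Log2 fold change ± SE from edgeR of the 7 tested genes in the 4 comparisons, with open symbols for adjusted p-values that did not pass the test. *Hr* and *Klf9* rose with age in both fractions, *Trh* and *Trhr* fell with age in GFP+ cells and stood far above 0 in both fraction comparisons, and *Dio2* was lower in GFP+ cells at both ages.

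The activating deiodinase was the gene with the largest change over time. *Dio2* (ENSMUSG00000007682, chromosome 12, 91962994 to 91976878, minus strand) had 14 and 18 counts in the P1 GFP+ libraries, or 0.305 and 0.723 CPM, and 15.6 and 18.7 CPM in the P1 GFP- libraries. At P6 it stood at 37.0 and 120.1 CPM in GFP+ cells and at 579.9 and 648.3 CPM in GFP- cells. The 4 groups did not overlap. *Dio2* rose 40.8-fold in GFP- cells (log2 fold change 5.35 ± 0.16 SE, p-adj = 5.13e-05 by edgeR) and 175-fold in GFP+ cells (7.45 ± 0.80, p-adj = 0.00624 by edgeR), where the P1 level rests on few reads. GFP+ cells were 33.6-fold below GFP- cells at P1 (-5.07 ± 0.36, p-adj = 0.000114 by edgeR) and 7.89-fold below them at P6 (-2.98 ± 0.55, p-adj = 0.0122 by edgeR). The difference between the ages was 2.08 ± 0.78 (p-adj = 0.171 by edgeR). It passed the test without P6 GFP+ replicate 1 (2.70, p-adj = 0.00144 by edgeR).

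*Dio2* is known in the cochlea from connective tissue around the sensory epithelium, and its reads in the P6 GFP+ libraries varied together with marker sums of other cell types. Relative to the P6 GFP- mean, *Dio2* was at 6.02% in P6 GFP+ replicate 1 and at 19.6% in replicate 2. The sums over 8 otic fibrocyte and mesenchyme markers were at 9.13% and 19.0%, those over 4 osteoblast markers at 3.70% and 13.7%, and those over 4 macrophage markers at 6.63% and 15.2%. All markers of these lists were counted in both libraries. Within the fibrocyte list, *Lum* was at 764.8 and 655.8 CPM in P6 GFP+ cells, against 680.4 and 545.2 CPM in P6 GFP- cells. *Dcn* was at 254.8 and 267.5 CPM, against 996.2 and 838.7 CPM. The other members of that list were higher in P6 GFP+ replicate 2 than in replicate 1, and lower than in P6 GFP- cells. Melanocyte markers stood at 6.37% and 15.5% in P6 GFP+ replicates 1 and 2, and cartilage markers at 14.4% and 23.5%. Over the 4 GFP+ libraries, each against the GFP- mean of its age, cartilage markers were at 14.4% to 38.3%. Neuron markers were at 14.1% to 84.3% and endothelial markers at 21.7% to 157%. Glia markers were at 59.9% to 170% and strial marginal cell markers at 57.3% to 359%. At P1 *Dio2* was at 1.78% and 4.21% of the GFP- mean, beside 3.38% and 3.15% for the fibrocyte and mesenchyme markers and 1.81% and 2.18% for the osteoblast markers. Without P6 GFP+ replicate 2, the rise in GFP+ cells was 6.44 on the log2 scale, and it was 8.09 without P6 GFP+ replicate 1, 6.86 without P1 GFP+ replicate 1 and 8.04 without P1 GFP+ replicate 2, each past the test. The fraction difference was -4.03 at P6 without P6 GFP+ replicate 2 and -2.33 without replicate 1, and at P1 it was -4.48 without P1 GFP+ replicate 1 and -5.66 without replicate 2, all past the test. The part of other cells in the *Dio2* level of GFP+ libraries was not tested. In GFP- cells the rise of *Dio2* went with osteoblast markers that were 33.0-fold higher at P6 than at P1, while fibrocyte and mesenchyme markers were 1.58-fold higher. The part of this change in cell content was not tested either.

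**Figure D3:**
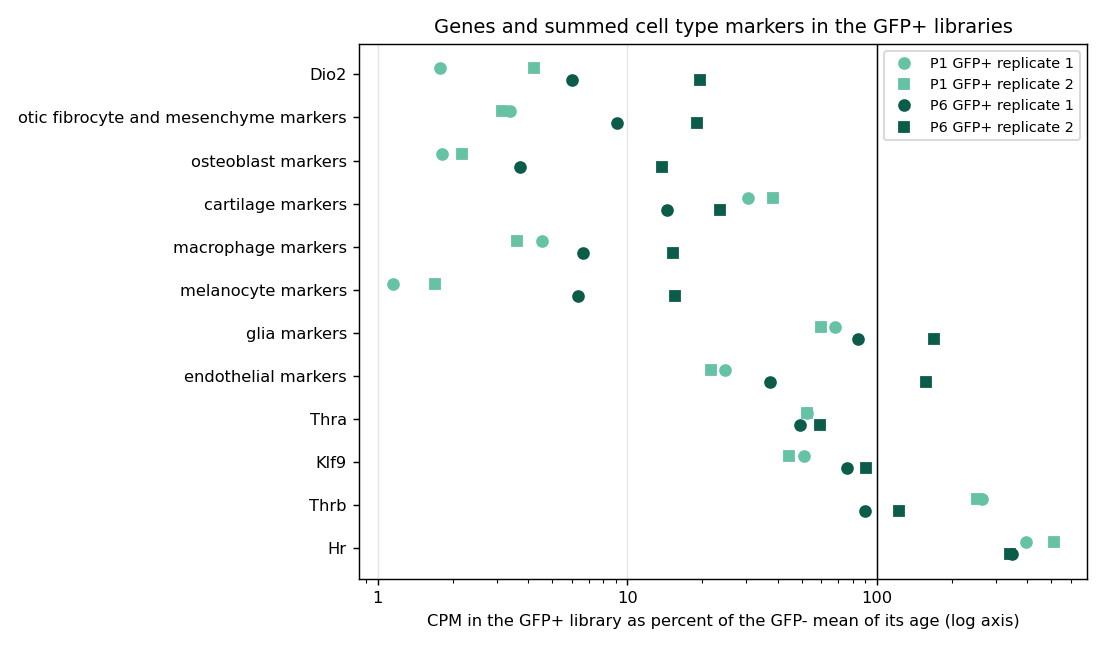
CPM in each GFP+ library as a percent of the mean of the 2 GFP- libraries of its age, on a log axis, for 5 pathway genes and for summed markers of other cell types; the vertical line marks 100%. *Dio2* lay between 1.78% and 19.6%, beside 1.15% to 19.0% for the fibrocyte, osteoblast, macrophage and melanocyte markers, 14.4% to 38.3% for cartilage, 21.7% to 157% for endothelial and 59.9% to 170% for glia markers, whereas *Thra*, *Klf9*, *Thrb* and *Hr* lay at 44.6% or above in every GFP+ library.

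Around the *Dio2* start the annotations differ, and the start in RefSeq (table of GRCm38.p6) lay 600 bases upstream of the GENCODE gene start. The 250 bases before the GENCODE start held neither the hexamer nor the cyclic AMP response element TGACGTCA. Those before the RefSeq start are shown because they hold the latter, in capitals. They matched a single place in NCBIM37.
*Dio2*, chr12:91977479-91977728, minus strand: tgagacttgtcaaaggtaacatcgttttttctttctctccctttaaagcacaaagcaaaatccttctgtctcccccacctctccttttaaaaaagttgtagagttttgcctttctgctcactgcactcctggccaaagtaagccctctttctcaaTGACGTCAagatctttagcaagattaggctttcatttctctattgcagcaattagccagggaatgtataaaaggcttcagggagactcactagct
The element began at position -95 from the RefSeq start and was present in the same 250 bases of 1.55% of 32851 RefSeq windows. That share does not allow for the choice between the windows. The data hold no measure of its use.

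The inactivating deiodinase *Dio3* (ENSMUSG00000075707, chromosome 12, 111517278 to 111519307, plus strand) was not counted in 6 of the 8 libraries. The P6 GFP- libraries had 2 and 3 counts. At these depths, 0 counts allow up to 0.0475 to 0.169 CPM in the 6 libraries, for counting error only. No difference between groups was detectable at this depth, and *Dio3* was tested in no comparison.

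Of the nuclear receptors, *Thrb* changed with age in GFP+ cells and *Thra* did not pass that test. *Thrb* (ENSMUSG00000021779, chromosome 14, 18493474 to 18870602, plus strand) encodes the receptor whose loss deafens mice. It was measured at 238.4 and 227.1 CPM in P1 GFP+ cells and at 61.4 and 119.6 CPM in P1 GFP- cells. At P6 it had 101.1 and 138.4 CPM in GFP+ cells and 119.6 and 106.1 CPM in GFP- cells, so that the fractions overlapped. *Thrb* was 2.77-fold higher in GFP+ cells at P1 (log2 fold change 1.47 ± 0.29 SE, p-adj = 0.00745 by edgeR), and the P6 difference was 0.08 ± 0.20 (p-adj = 0.798 by edgeR). Without P6 GFP+ replicate 2 the P6 value was -0.14, and without P6 GFP- replicate 2 it was -0.02. In GFP+ cells *Thrb* fell by 0.87 ± 0.17 on the log2 scale with age (p-adj = 0.0268 by edgeR), a call lost without P1 GFP+ replicate 1 (p-adj = 0.131 by edgeR) or replicate 2 (p-adj = 0.136 by edgeR). In GFP- cells the change was 0.51 ± 0.28 (p-adj = 0.241 by edgeR), and the difference between the ages in the fraction ratio was -1.40 ± 0.41 (p-adj = 0.0854 by edgeR).

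The P1 GFP- replicates disagreed on *Thrb* more than those of any other group did. Replicate 2, with the higher *Thrb* level, also held more neuron markers, with a sum over 5 markers of 464.7 CPM against 138.8 CPM in replicate 1. Supporting cell markers were higher in it too, at 356.4 CPM against 226.7 CPM. Without P1 GFP- replicate 2, *Thrb* rose with age in GFP- cells by 1.05 on the log2 scale (p-adj = 5.31e-05 by edgeR), and the difference between the ages in the fraction ratio was -1.88 (p-adj = 0.0193 by edgeR). The part of neurons or supporting cells in the *Thrb* level of this library was not tested.

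*Thra* (ENSMUSG00000058756, chromosome 11, 98601952 to 98630320, plus strand) encodes the other nuclear receptor, together with a splice form that does not bind T3. Its level was 108.9 and 109.0 CPM in P1 GFP+ cells and 202.8 and 212.8 CPM in P1 GFP- cells. At P6 it was at 82.4 and 98.6 CPM in GFP+ cells and at 172.1 and 162.1 CPM in GFP- cells. The GFP+ libraries were below the GFP- libraries at both ages. *Thra* was 1.77-fold lower in GFP+ cells at P1 (log2 fold change -0.83 ± 0.08 SE, p-adj = 0.000486 by edgeR) and 1.86-fold lower at P6 (-0.89 ± 0.17, p-adj = 0.0129 by edgeR). The P6 call was lost without P6 GFP- replicate 1 (p-adj = 0.130 by edgeR) or replicate 2 (p-adj = 0.0870 by edgeR). The change with age was -0.18 ± 0.12 in GFP+ cells (p-adj = 0.343 by edgeR) and -0.12 ± 0.11 in GFP- cells (p-adj = 0.470 by edgeR). Without P6 GFP+ replicate 2 the former was -0.28 with p-adj = 0.0274 by edgeR. *Thra* shares 263 exon bases, 5.70% of its exon length, with *Nr1d1* on the other strand, and the library kit did not keep strand. *Nr1d1* had 79.3 and 72.3 CPM in P6 GFP+ cells and 4.80 to 23.6 CPM in the other libraries, so a small share of *Thra* counts is uncertain. *Dio2* shares 100 exon bases (1.72%) with the noncoding gene *Gm16738*, which was at most at 2.11 CPM.

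Per kb of exon, which allows the receptors to be compared within a library, *Thrb* exceeded *Thra* in the P1 GFP+ libraries only. The length used is that of all annotated exons of a gene merged. Which transcripts were expressed was not measured, so the size of a ratio between genes depends on this choice. The ratio of *Thrb* to *Thra* was 1.53 and 1.45 in P1 GFP+ cells and 0.211 and 0.392 in P1 GFP- cells. In P6 GFP+ cells it was 0.855 and 0.978, against 0.484 and 0.456 in P6 GFP- cells. The ratios of the 4 groups did not overlap, the P1 GFP- libraries being lowest. For the TRH system, the ratio of *Trhr* to *Trh* was 0.687 and 0.571 in P1 GFP+ cells and 0.344 and 0.381 in P6 GFP+ cells.

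The order of the genes by length-scaled level, which rests on the same exon lengths, changed between groups. In P1 GFP+ cells *Trh* was highest at 49.6 ± 5.02 CPM per kb (SD, n = 2), followed by *Thrb* (35.1 ± 1.21), *Trhr* (31.0 ± 0.898), *Thra* (23.6 ± 0.0107), *Hr* (5.22 ± 0.973), *Klf9* (3.28 ± 0.319) and *Dio2* (0.0885 ± 0.0508). No neighbours in this order had overlapping libraries. In P6 GFP+ cells *Hr* was highest at 33.5 ± 0.479 CPM per kb, followed by *Klf9* (22.8 ± 2.77), *Thra* (19.6 ± 2.48), *Thrb* (18.1 ± 3.98) and *Dio2* (13.5 ± 10.1), and then by *Trh* (6.56 ± 0.899) and *Trhr* (2.37 ± 0.156). In this group the libraries of neighbours overlapped from *Klf9* down to *Trh*. In P1 GFP- cells *Thra* led at 45.0 ± 1.52 CPM per kb, *Thrb* was at 13.7 ± 6.21, *Klf9* at 6.85 ± 2.68, *Dio2* at 2.95 ± 0.367 and *Hr* at 1.15 ± 0.150. In P6 GFP- cells *Dio2* led at 105.6 ± 8.32 CPM per kb, before *Thra* (36.2 ± 1.54), *Klf9* (27.5 ± 1.72), *Thrb* (17.0 ± 1.45) and *Hr* (9.68 ± 0.0868). The libraries of neighbours in these orders did not overlap. *Trh* and *Trhr* had means of at most 0.591 CPM per kb in both GFP- groups. The leading gene was thus a different one in each of the 4 groups.

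Counted over the 7 tested genes, 4 were higher and 3 lower in GFP+ cells at P1, where 53.6% of 18682 genes passed the test (25.5% higher and 28.1% lower). At P6, 3 were higher, 2 lower and 2 did not pass, beside 33.5% of 18294 genes (15.5% higher and 17.9% lower). Between P1 and P6, 3 rose, 3 fell and 1 did not pass in GFP+ cells, beside 20.4% of 17213 genes (12.1% rising and 8.31% falling). In GFP- cells 3 rose and 4 did not pass, beside 19.1% of 18920 genes (11.3% rising and 7.87% falling). The difference between the ages in the fraction ratio passed for 1 of the 7, which was below 0, beside 6.38% of 19233 genes (3.6% above and 2.79% below 0). The median log2 fold change of the 7 was 1.47 at P1 and 0.08 at P6 for the fractions, beside 0.01 and -0.02 over all genes tested, and -0.18 in GFP+ and 0.51 in GFP- cells for age, beside 0.00 and -0.02. The age comparisons share libraries with the fraction comparisons. The members and the lists below were chosen with earlier results of these data known, so counts and medians beside those of all genes only describe them.

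The cell's supply of hormone also depends on membrane transporters and carriers, of which 8 of 9 listed genes were tested. In GFP+ cells at P1, 1 of them was higher, 4 were lower and 3 did not pass, beside 25.5% of all genes tested higher and 28.1% lower. At P6, 6 were lower and 2 did not pass, beside 15.5% higher and 17.9% lower. The median log2 fold change was -1.63 at P1 and -1.82 at P6, and 0.01 and -0.02 over all genes tested. *Slco1c1*, which encodes the T4 transporter OATP1C1, was at 0.982 and 0.603 CPM in P1 GFP+ cells and at 73.7 and 49.6 CPM in P1 GFP- cells (log2 fold change -6.09 ± 0.32 SE, p-adj = 4.11e-05 by edgeR). *Crym*, a cytosolic T3-binding protein, was lower in GFP+ cells at P1 (-4.47 ± 0.11, p-adj = 9.99e-06 by edgeR) and had 33.9 and 34.8 CPM there. *Slc7a8*, an amino acid transporter that also carries thyroid hormone, had log2 fold changes of -3.04 ± 0.17 at P1 (p-adj = 5.21e-05 by edgeR) and -2.81 ± 0.43 at P6 (p-adj = 0.00736 by edgeR).

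With age, 1 of the 8 transport and carrier genes rose in GFP+ cells and 7 did not pass, while in GFP- cells 5 rose, 2 fell and 1 did not pass, with medians of 0.35 and 0.83. Of all genes tested 12.1% rose and 8.31% fell in GFP+ cells and 11.3% rose and 7.87% fell in GFP- cells, with medians of 0.00 and -0.02. The gene that rose in GFP+ cells was *Slco1c1*, at 12.5 CPM in P6 GFP+ replicate 1 and 58.8 CPM in replicate 2 (log2 fold change 5.51 ± 0.86 SE, p-adj = 0.0155 by edgeR). This spread between replicates, a ratio of 4.69, went with the marker sums of other cell types described above, and their part in it was not tested. In GFP- cells *Slco1c1* rose to 363.6 and 409.3 CPM (2.84 ± 0.20, p-adj = 0.000504 by edgeR), beside the rise of *Dio2* in the same libraries. *Slc16a10*, which encodes the transporter MCT10, rose there by 1.97 ± 0.26 (p-adj = 0.00342 by edgeR).

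Among 20 genes known to respond to T3 in brain, liver, heart or ear, 19 were tested between the ages. This list too was chosen with earlier results known, so its counts are a description and not a test of the list. In GFP+ cells 9 rose, 2 fell and 8 did not pass, with a median log2 fold change of 1.14, where 12.1% of all genes rose and 8.31% fell. In GFP- cells 10 rose, 1 fell and 8 did not pass, with a median of 0.98, where 11.3% rose and 7.87% fell. The 4 largest rises in GFP+ cells were those of *Slc26a5*, *Aldh1a1*, *Thrsp* and *Mbp*. *Slc26a5* encodes prestin, the motor protein of outer hair cells, and was at 0.698 and 1.21 CPM in P1 GFP+ cells and at 15.1 and 19.8 CPM in P6 GFP+ cells (log2 fold change 4.32 ± 0.34 SE, p-adj = 0.00332 by edgeR). In the same libraries the 7 hair cell markers summed to 688.3 and 790.2 CPM at P1 and 404.1 and 489.3 CPM at P6. Most of each sum was *Myo6*, at 442.2 and 475.5 CPM at P1 and 250.2 and 325.1 CPM at P6. The part of hair cells in the *Slc26a5* level was not tested. *Thrsp*, a lipogenic protein of liver, was at 1.16 and 1.41 CPM at P1 and 14.5 and 9.88 CPM at P6 (3.35 ± 0.33, p-adj = 0.00506 by edgeR). *Mbp* encodes a myelin protein and is also among the 4 glia markers, whose sum was 397.8 and 352.2 CPM in P1 GFP+ cells and 942.9 and 1902 CPM in P6 GFP+ cells. *Tectb*, a tectorial membrane protein, rose in GFP- cells by 3.31 ± 0.50 (p-adj = 0.00598 by edgeR), from 130.4 and 394.0 CPM to 2574 and 1961 CPM. It was far higher in GFP+ cells, at 7028 and 6318 CPM at P1 and 15195 and 12269 CPM at P6. The part of supporting cells in its GFP- level was not tested. The gene that fell in GFP- cells was *Rasd2* (-2.85 ± 0.35, p-adj = 0.00287 by edgeR).

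**Figure D4:**
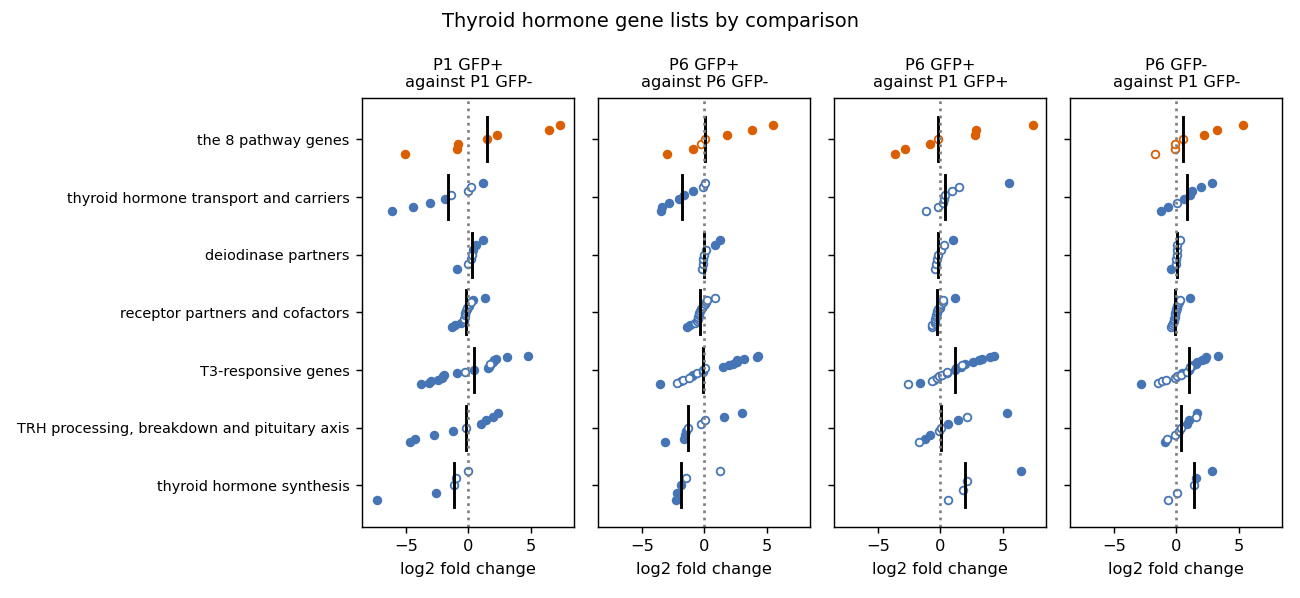
Log2 fold change of each tested gene of the pathway lists in the 4 comparisons; filled points passed the test, black bars are list medians and dotted lines the median of all genes tested. Transport and carrier genes lay mostly below 0 in the fraction comparisons, T3-responsive genes had medians of 1.14 and 0.98 in the age comparisons, and the medians of the cofactors lay between -0.38 and -0.07.

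Of 16 retinoid X receptors, corepressors and coactivators, 2 were higher and 4 lower in GFP+ cells at P1 and 0 were higher and 2 lower at P6, with medians of -0.23 and -0.38. Over all genes tested, 25.5% were higher and 28.1% lower at P1 and 15.5% higher and 17.9% lower at P6, with medians of 0.01 and -0.02. *Rxra*, a partner of both receptors, was lower in GFP+ cells at both ages (log2 fold change -1.09 ± 0.09 SE at P1, p-adj = 0.000257 by edgeR, and -1.17 ± 0.24 at P6, p-adj = 0.0169 by edgeR), as *Thra* was. With age, *Kat2b*, a histone acetyltransferase, was the 1 gene of the 16 that rose in GFP+ cells (1.16 ± 0.14, p-adj = 0.00765 by edgeR) and the 1 that rose in GFP- cells (1.06 ± 0.12, p-adj = 0.00203 by edgeR), and none fell, while 12.1% of all genes tested rose and 8.31% fell in the former and 11.3% and 7.87% in the latter. Of 8 deiodinase partners, 7 were tested, and 3 were higher and 1 lower in GFP+ cells at P1 (median 0.26) and 2 were higher and 0 lower at P6 (median -0.06), to be read beside the same shares of all genes. *Usp20*, which removes ubiquitin from the DIO2 protein, was higher in GFP+ cells at P1 (1.20 ± 0.12, p-adj = 0.000454 by edgeR), and *Wsb1*, which directs its ubiquitination, was lower (-0.88 ± 0.10, p-adj = 0.000866 by edgeR). At P6 *Usp20* was again higher (0.84 ± 0.15, p-adj = 0.0126 by edgeR), but *Wsb1* did not pass (-0.16 ± 0.20, p-adj = 0.580 by edgeR). *Dio1* was at most at 0.201 CPM.

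A further list holds enzymes that make TRH from its precursor or degrade it, the second TRH receptor, and the subunits and receptor of thyrotropin (TSH). Of its 12 genes 9 were tested, and 4 were higher and 4 lower in GFP+ cells at P1 (median -0.18) and 2 were higher and 4 lower at P6 (median -1.30), where 25.5% of all genes tested were higher and 28.1% lower at P1 and 15.5% and 17.9% at P6. One of the 4 higher at P1 was the TSH receptor gene *Tshr* (log2 fold change 1.96 ± 0.60 SE, p-adj = 0.0357 by edgeR), at no more than 1.17 CPM. It had 28 and 29 counts in the P1 GFP+ libraries and 4 and 21 counts in the P1 GFP- libraries. Its P6 value of -1.30 ± 0.62 did not pass (p-adj = 0.160 by edgeR) and is the median at P6. The prohormone convertase gene *Pcsk1* was higher in GFP+ cells at P1 (log2 fold change 2.35 ± 0.35 SE, p-adj = 0.00219 by edgeR) and P6 (3.02 ± 0.65, p-adj = 0.0197 by edgeR), at levels of no more than 1.41 CPM. The other convertase gene, *Pcsk2*, was at 2.53 and 2.37 CPM in P1 GFP+ cells and rose to 99.3 and 86.0 CPM in P6 GFP+ cells (5.32 ± 0.18, p-adj = 0.00156 by edgeR), the reverse of the course of *Trh*. In GFP- cells *Pcsk2* went from 68.9 and 66.8 CPM to 34.4 and 28.7 CPM (-0.91 ± 0.14, p-adj = 0.00580 by edgeR). *Pam*, which amidates TRH and other peptides, was lower in GFP+ cells at both ages (-2.75 ± 0.13 at P1, p-adj = 2.90e-05 by edgeR, and -1.62 ± 0.23 at P6, p-adj = 0.00634 by edgeR). *Trhde*, the enzyme that degrades TRH outside cells, was at 0.545 and 0.321 CPM in P1 GFP+ cells and at 7.52 and 12.0 CPM in P1 GFP- cells (-4.31 ± 0.39, p-adj = 0.000295 by edgeR). The second TRH receptor gene, *Trhr2*, was at most at 0.111 CPM.

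Genes of thyroid hormone synthesis, which is carried out in the thyroid gland, were at low levels. Of 9 listed, 5 had enough reads to be tested between the fractions, and none of the 9 exceeded 11.0 CPM in any library. *Iyd*, which recycles iodide, was at most at 7.84 CPM. *Tg*, the thyroglobulin gene, had the highest level of the list in P6 GFP- cells, where it was above P1 GFP- cells by 2.85 ± 0.28 on the log2 scale (p-adj = 0.00135 by edgeR).

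The genes whose course over the 8 libraries was nearest to each of the 7 were found by the root mean square difference of centred log2(CPM + 1) among 15475 genes. *Trhr* was nearest to *Pdzk1ip1* (a difference of 0.208) and *Pkd2l1* (0.298), and *Trh* to *Alox15* (0.328) and *Kcnh6* (0.376). *Hr* was nearest to *Kcnk3* (0.259) and *Sh2d6* (0.400), and *Klf9* to *Atp6v1c2* (0.230) and *Gbp3* (0.342). *Dio2* was nearest to *Ibsp* (0.577) and *Gm525* (0.692), *Ibsp* being 1 of the 4 osteoblast markers. *Thrb* was nearest to *Pde4dip* (0.153) and *Eya1* (0.185), and *Thra* to *Ctnnbl1* (0.0697) and *Cnnm4* (0.0712). These distances describe the same 8 libraries and have no test.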

How the data were processed

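RNA was measured in 8 libraries from sorted cochlear cells, 2 for each age and fraction named in their labels. Per the study's methods, libraries were made with the TruSeq RNA kit v2, which does not keep strand, with prior amplification where fewer cells were available, and paired-end reads were aligned to mm9 (NCBIM37) with TopHat and counted per Ensembl gene. The submitters' processing notes list TopHat 1.4.0, HTSeq and DESeq 1.9.2. The deposited values are raw counts per gene, with no normalization by the authors, and the counting mode is not given in the sources used here. Reads on no gene, on several genes or aligned at several places, 23.8% to 35.3% of those listed, were left out. The libraries held 17769024 to 67695039 counts on genes, and replicates differed by more than sampling noise.

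Symbols, positions and exon lengths came from GENCODE vM1 on NCBIM37, which held 34391 of 36536 genes and all 8 members. CPM is the count per 1000000 gene counts of the library. Each comparison was fitted on the counts of its 4 libraries, and the interaction of age and fraction on all 8, with edgeR 4.0.16 in R 4.3.3 (filterByExpr with minimum count 10 and minimum total 15, TMM, two-sided quasi-likelihood test, Benjamini-Hochberg over all genes tested). A gene passed the test when its adjusted p-value was below 0.05. The procedure was tested on simulated data. The members and gene lists were chosen with earlier results of these data known. Named genes are the 8 members, genes overlapping them, the 2 nearest in pattern, and up to 4 of each further list per comparison, those with the largest absolute log2 fold change among genes past the test, of which some are given. Genes outside this rule were named after their values were seen: *Dio1*, *Trhr2*, *Tshr*, *Atoh1*, *Myo6*, *Lfng*, *Prox1*, *Lum* and *Dcn*. Upstream sequences were read from the NCBIM37 genome, or for *Dio2* from the RefSeq table. Some items are not reported here.

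The labels give no pairing beyond the replicate numbers, and the main fits were unpaired. Differences between replicates were correlated across groups, which cannot exclude that both fractions of a replicate number came from the same sort. The alternatives were DESeq2 size factors, library totals, the DESeq2 test (version 1.42.0), no filter, a replicate block, all 8 libraries in each fit, and each library left out.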

Additional observations from a re-analysis of the deposited data

Results flagged for a closer look

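The ratio of GFP+ to GFP- cells differed between P6 and P1 by the interaction test over the 8 libraries for *Trh* and for 8 genes of the other lists. Values are the P6 minus the P1 log2 ratio of GFP+ to GFP- cells, with adjusted p-values by edgeR over all genes. For *Trh* the difference was -2.73 ± 0.27 SE (p-adj = 0.00187 by edgeR), the ratio being lower at P6. In the TRH list, *Pcsk2* had a difference of 6.21 ± 0.24 (p-adj = 9.28e-05 by edgeR), going from below to above GFP- cells. *Qpct*, which forms the N-terminal pyroglutamate of TRH, had a difference of -2.93 ± 0.26 (p-adj = 0.00127 by edgeR), going from above to below GFP- cells. It had 40.3 and 42.1 CPM in P1 GFP+ cells and 13.5 and 19.5 CPM in P6 GFP+ cells. In GFP- cells *Qpct* rose from 16.9 and 17.3 CPM to 51.9 and 43.9 CPM. *Pam* had a difference of 1.11 ± 0.27 (p-adj = 0.0476 by edgeR) and *Pgpep1*, a pyroglutamyl peptidase, of -1.23 ± 0.24 (p-adj = 0.0230 by edgeR). Among T3-responsive genes, *Aldh1a1* had a difference of 2.27 ± 0.30 (p-adj = 0.00547 by edgeR) and *Aldh1a3* of 2.78 ± 0.65 (p-adj = 0.0467 by edgeR). The P1 GFP- replicates differed on *Aldh1a3*, at 25.1 and 77.0 CPM. *Slc3a2*, the heavy chain of amino acid transporters that carry thyroid hormone, had a difference of -0.84 ± 0.19 (p-adj = 0.0396 by edgeR). *Iyd* had a difference of 5.02 ± 0.99 (p-adj = 0.0254 by edgeR), with at most 1 count in a P1 GFP+ library. Groups of 2 libraries are too small for a check of single outlying libraries.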

How the results depend on the processing

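Of 378 values of the 7 tested genes under other settings, 345 kept their direction and their side of the threshold, 22 passed the test only under the other setting, 7 no longer passed it and 4 changed sign. The sign changes concern values near 0. They are *Thrb* between the P6 fractions (-0.14 to 0.32 with a library left out, below 0 without P6 GFP+ replicate 2 or P6 GFP- replicate 2) and *Thra* in the interaction (0.049 with library totals, -0.19 to 0.010 with a library left out, above 0 without P6 GFP+ replicate 1). The 7 lost calls are those of *Klf9* at P1, *Thra* at P6 and *Thrb* with age in GFP+ cells without the libraries named with them above, and *Thrb* with age in GFP+ cells with all 8 libraries in the fit (p-adj = 0.0587 by edgeR).

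The number of the 7 genes past the test moved by over 1.5 times in 2 comparisons. In the others it moved by at most 1, from 7 to 6 at P1, from 5 to 4 at P6, and from 6 to 5 or 7 with age in GFP+ cells, through the lost calls above and the gained call of *Thra* without P6 GFP+ replicate 2. Between the ages in GFP- cells it was 3, and 5 with no filter or with a crossed replicate block. For the interaction it was 1, 4 with the DESeq2 test, 4 with no filter, and 1 to 3 with a library left out (2 without P1 GFP- replicate 1, and 3 without P1 GFP- replicate 2, P6 GFP+ replicate 1 or P6 GFP+ replicate 2). The cause was not tested. Differences between replicates had correlations of -0.28 to 0.09 between groups over 19233 genes, and of 0.02 at P1 and 0.09 at P6 between the fractions. Such values cannot exclude that GFP+ and GFP- libraries of the same number came from the same sort. A replicate block left the counts of members at 7, 5, 6, 3 and 1 in the order of the report. The crossed block was added after seeing the data and gave 5481 genes past the test in GFP- cells, against 3619.

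Counts over all genes depended on the setting. Those past the test were 10022 at P1 (6412 to 11647 with a library left out), 6122 at P6 (1940 to 9806), 3511 with age in GFP+ cells (680 to 9491, and 5854 with no filter), 3619 with age in GFP- cells (1140 to 4867, and 5444 with no filter) and 1228 for the interaction (337 to 2991, 2304 with the DESeq2 test, 3201 with no filter and 750 with the block). Library totals moved the median of all genes in GFP- cells to -0.21 and lowered the share of rises among calls there from 58.9% to 33.6%, and moved the median to 0.16 and the share above 0 from 56.4% to 67.0% for the interaction. With 2 libraries a group and few reads for *Dio2*, *Trh* and *Trhr* where they are low, small differences could not be resolved.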
